A study of Mus musculus with 6 samples.

Results

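Retina of C57BL/6J mice on embryonic day 18.5 (E18.5), just before birth, was compared with retina on postnatal day 0 (P0), the day of birth. The members were the samples labelled with these stages, 2 of the 6 samples of a developmental series that also held E13.5, E15.5, P6 and P21. Each stage had 1 sample of untreated retina tissue, deposited as 2 columns of tag counts, and the labels used here give neither the number of animals behind a sample nor what separates its columns. The assay was PA-seq, in which each tag marks the 3′ end of a polyadenylated RNA, so a gene's summed tags give its abundance and the split of its tags between sites gives the choice of poly(A) site. Per the labels, the strain and tissue were the same at every stage, and no mutant allele or agent was named.

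The mouse retina is unfinished at birth. Ganglion, amacrine and horizontal cells and cones are born largely before it, rods and bipolar cells around and after it, and progenitors still divide. Most genes end their RNA at more than 1 poly(A) site, and a switch between a proximal and a distal site within the last exon shortens or lengthens the 3′ untranslated region (UTR), the stretch in which RNA-binding proteins and microRNAs act.

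The E18.5 columns held 2496483 and 2159670 tags and the P0 columns 1660084 and 1626074. Between 96.8% and 97.2% of these tags fell in a gene or within 1000 bases downstream of one. A count of 3 tags, the lowest level taken as measured, stood for 1.21 and 1.4 CPM (tags scaled to a common library size) at E18.5 and for 1.92 and 1.94 CPM at P0. Markers of retina were present in both stages. The progenitor factor Six6 stood at 463 and 473 CPM at E18.5 and at 516 and 509.5 CPM at P0, and the photoreceptor factor Crx at 323 and 280 CPM against 402 and 339 CPM. The columns of a stage were not treated as replicates. Over genes of 100 to 1000 tags, the robust SD of their difference was 1.0 times counting error at E18.5 and 1.11 times at P0, against 2.01 and 2.16 times between the stages, so their likeness says nothing about the spread between retinas. With 1 sample a stage no test was possible. A gene was therefore called only by size: at least 2-fold in the same direction in both columns, with at least 20 tags in the larger column of each. Intervals below are 95% intervals for counting error alone, and tags from PCR are not independent molecules.

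Of 11296 genes measured deeply enough, 86 were higher at P0 (0.761%) and 289 were lower (2.56%), and 4 moved 2-fold in opposite directions in the 2 columns. Of the genes higher at P0, 19 belonged to a list of lens genes, and 67 of 11275 genes lay outside it (0.594%). The P0 columns lay wholly above the E18.5 columns for 84 of the 86, where 35% of all genes did so, and wholly below for all 289, where 32.3% did so, but the call itself nearly forces this. The E18.5 columns were the deeper ones, so 20 tags stood for a lower level there; with a minimum of 15 CPM in place of 20 tags, chosen after seeing the data, 78 genes were higher and 210 lower. As a yardstick, 51 genes (0.451%) differed 2-fold between the columns of E18.5 and 265 (2.35%) between those of P0. The median log2 ratio of all genes was 0.02 and 0.01 in the columns. Just inside the limits lay Ovgp1, with log2 ratios of 1.14 and 1.02, and Cox7c, with -1.005 and -1.15. Just outside lay Sall3, with 0.999 and 1.35, and Rps6, with -0.998 and -1.07.

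**Figure D1:**
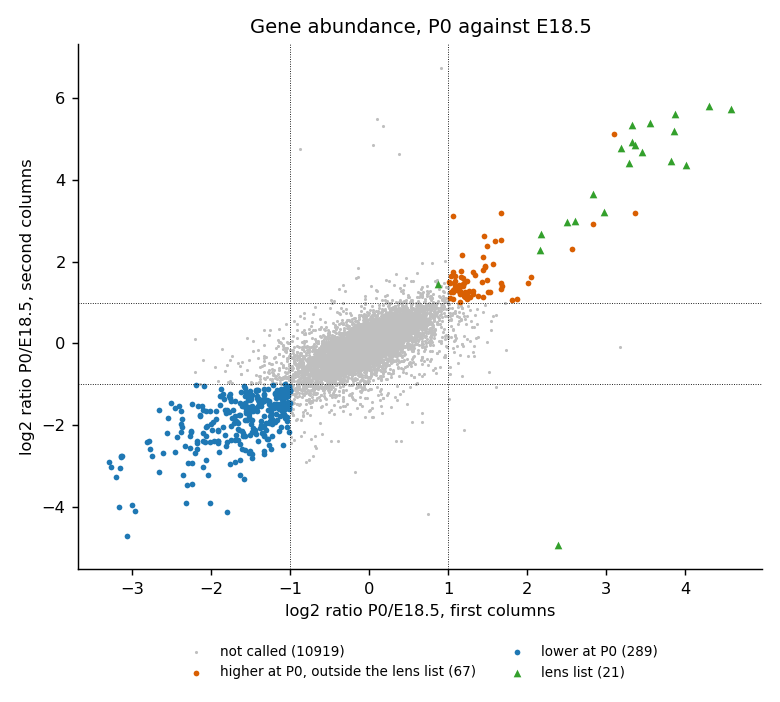
Each point is a gene, with its log2 ratio of P0 to E18.5 in the first columns (x axis) and in the second columns (y axis); dotted lines mark 2-fold. Lens genes (triangles) take the upper right, the 289 genes lower at P0 form a cloud at the lower left, and 1 lens gene, Cryaa, lies alone at the lower right.

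Lens genes gave the highest ratios. The lens is the crystallin-filled tissue in front of the retina, and its list held 31 genes, of which 21 were measured deeply enough: 19 were higher at P0, none was lower, and all 19 passed 4-fold in both columns. The list summed to 735 and 469 CPM at E18.5 and to 6167 and 6140 CPM at P0. At the other stages the lowest sum was 212 CPM, at P6, and the highest 4419 CPM, at E15.5. Cryga, a gamma crystallin, stood at 61.3 and 21.9 CPM at E18.5 and at 618 and 669 CPM at P0, 15-fold higher (12.9 to 17.4). Cryba1, a beta crystallin, went from 82.3 and 49.3 to 585 and 620 CPM, 8.99-fold higher (7.97 to 10.2). Stages did not overlap for either gene. Crygb reached 18.4-fold (15.2 to 22.4), Cryba4 15.6-fold (13.0 to 18.8), Crygd 15.3-fold (12.7 to 18.5) and Cryge 13.7-fold (11.8 to 15.9). Gamma crystallins are close relatives, and how tags that match several were treated is not given in the sources used here, so values of single members are uncertain.

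Cryaa, the main alpha crystallin of the lens, was measured but not called. It stood at 143 and 120 CPM at E18.5 and at 753 and 3.88 CPM at P0, so it was highest in one P0 column and near the floor in the other. In bulk tissue more or fewer cells of a type and more or less RNA per cell cannot be told apart. The lens list is kept apart from all that follows.

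**Figure D2:**
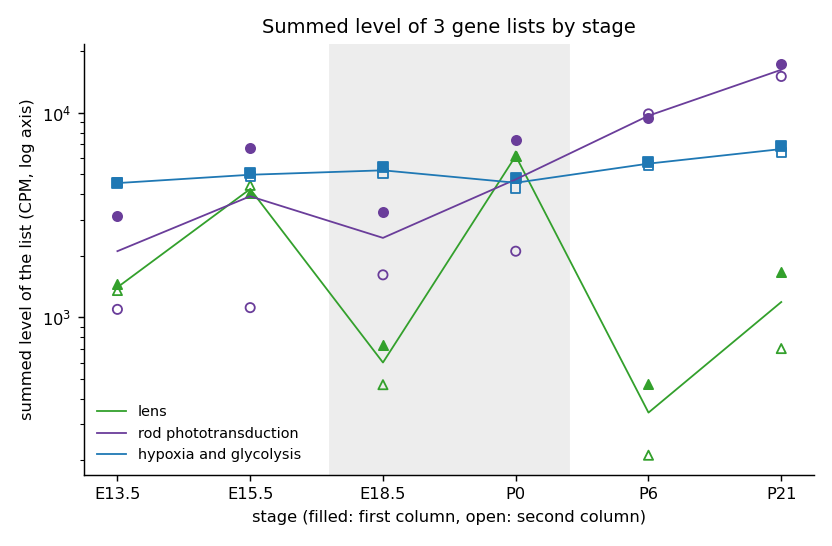
Summed CPM (log axis) of the lens, rod and hypoxia lists at the 6 stages, with the first column filled, the second open, a line through their mean and E18.5 and P0 shaded. The lens sum is 735 and 469 CPM at E18.5 and 6167 and 6140 CPM at P0, while the rod sum differs as much between columns as between these stages.

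Outside the lens list, the 67 genes higher at P0 were mostly weakly expressed, with a median of 9.73 CPM at E18.5 and 26.1 CPM at P0, and 4 of them passed 4-fold in both columns. Pgam2, the muscle form of the glycolytic enzyme phosphoglycerate mutase, stood at 1.61 and 2.33 CPM at E18.5 and at 16.6 and 21.4 CPM at P0, 9.76-fold higher (4.81 to 22.4). It was also at 12.1 and 18.8 CPM at E15.5, after 2.52 and 2.30 CPM at E13.5. Capn3, a calcium-dependent protease of muscle and lens, stood at 6.46 and 6.52 CPM at E18.5 and at 38.4 and 32.4 CPM at P0, 5.46-fold higher (3.62 to 8.47). Its levels at E13.5 and E15.5, 41.1 and 74.4 CPM with the columns added, were above those at E18.5, as were the sums of the lens list. They were also above the 35.4 CPM of Capn3 at P0, whereas the lens sums were highest at P0. The part of lens tissue in the values of Pgam2 and Capn3 was not tested. For comparison over libraries that this contrast does not use, 17 of the 19 lens genes and 6 of the 67 others were 2-fold higher at E15.5 than at E13.5 in both columns, against 2.9% of all genes; the 6 were Pgam2, Insyn1, Vamp1, Ovgp1, Cyp4f13 and Gm6566.

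Mt2 encodes a metallothionein, a small metal-binding protein. It stood at 6.05 and 0.465 CPM at E18.5 and at 51.8 and 48.6 CPM at P0, 14.5-fold higher (8.66 to 26). Mt1, its neighbour on chromosome 8 and also a metallothionein gene, stood at 25.0 and 18.6 against 62.1 and 62.8 CPM, 2.83-fold higher (2.22 to 3.64). Both genes had every P0 value above every E18.5 value, although 1 E18.5 column of Mt2 held a single tag.

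A pair of arrestin-domain genes that restrain glucose uptake was also called. Arrdc4 stood at 7.67 and 5.58 CPM at E18.5 and at 23.0 and 31.7 CPM at P0, 4.08-fold higher (2.68 to 6.37). Txnip stood at 28.2 and 27.0 against 76.8 and 93.9 CPM, 3.08-fold higher (2.49 to 3.84), with no overlap between stages. Among RNA-binding proteins induced by cold, Cirbp stood at 166 in both E18.5 columns and at 378 and 436 CPM at P0, 2.45-fold higher (2.24 to 2.68). Rbm3, its relative, stood at 109 and 94.5 against 159 and 145 CPM and was not called, with log2 ratios of 0.55 and 0.62. Nr1d1, a repressor in the circadian clock, stood at 50.4 and 48.4 CPM at E18.5 and at 116 and 107 CPM at P0. Lmo2, a transcription cofactor of blood and vessel cells, stood at 16.9 and 11.2 against 46.1 and 48.6 CPM, 3.32-fold higher (2.46 to 4.50). Txnip, Mt1, Cirbp, Rbm3, Nr1d1 and Lmo2 were singled out after their values were seen.

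The other genes of highest ratio were little studied. They were Gm11738, Gm10654, Gm12439 and Gm6566, the kinase Nim1k, the inhibitory-synapse protein Insyn1 and Tgfbr3l, with folds between 2.89 for Insyn1 (1.88 to 4.51) and 7.44 for Gm11738 (4.06 to 14.7). The 3′ ends of Gm6566 and Tgfbr3l matched RNA of other genes at 90% identity or more over at least 60 bases, so their tags are uncertain.

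Genes of rods gave values that differed between columns. Rod phototransduction is the cascade that turns light into an electrical signal. Of its 14 measured genes, 1 was called higher and none lower, against 0.761% and 2.56% of all genes. Median log2 ratios were 1.0 (first columns) and 0.41 (second columns). In both columns 11 were up and none down, where 4656 of all 11296 genes were up and 4270 down. Cngb1, a subunit of the rod channel opened by cyclic GMP, stood at 54.5 and 4.19 CPM at E18.5 and at 153 and 22 CPM at P0, so the stages overlapped although each column passed 2-fold. Recoverin, Rcvrn, a calcium sensor of photoreceptors, stood at 119 and 21.9 CPM at E18.5 and at 393 and 19.4 CPM at P0. Its log2 ratio was 1.73 from the first and -0.17 from the second columns. Between the columns of a stage, 6 of the 14 rod genes differed 2-fold at E18.5 and 8 at P0, against 0.451% and 2.35% of all genes. The rod sum was 3280 and 1614 CPM at E18.5 and 7345 and 2106 CPM at P0, and the first column was above the second at E13.5 and E15.5 as well, with 6700 against 1116 CPM at E15.5. The part of this column difference in the rod values was not tested.

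Of 24 measured genes of photoreceptor differentiation 2 were higher, Cngb1 and Samd11, against 0.761% of all genes, and none was lower. Nrl, the factor that sets rod fate, had log2 ratios of 0.59 and 0.42, and its target Nr2e3 of 0.35 and 0.65. Samd11, a transcriptional repressor of photoreceptors, stood at 79.9 and 50.7 CPM at E18.5 and at 176 and 137 CPM at P0, 2.36-fold higher (2.04 to 2.73), with no overlap. The cone list had 12 measured members and none called, and the cone opsin Opn1sw stood at 248 and 235 against 249 and 192 CPM.

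The 289 genes lower at P0 had a different make-up. Their median level was 27.7 CPM at E18.5 and 8.04 CPM at P0, and 48 passed 4-fold in both columns. Levels were highest at E18.5 of all 6 stages for 200 of them (69.2%, against 11.8% of all genes) and lowest at P0 for 160 (55.4%, against 12.1%), which choosing genes that are high at E18.5 and low at P0 favours. Between E13.5 and E15.5, which share no library with this contrast, 50 of the 289 were 2-fold lower in both columns, against 0.974% of all genes, and 5 were higher.

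Low GC content went with the call. Over the last 200 bases of RNA at the main site, the lower genes had a median GC content of 30%, against 41.5% for all genes and 47.0% for genes higher outside the lens list. Of the 2371 genes with 21.5% to 33.5% GC, 167 were lower (7.04%) and 5 higher, while the next 4 classes of GC content held between 14 and 31 lower genes each. Tag numbers went with it too: 174 of the lower genes and 48 of the higher genes were among the 2269 genes with the fewest tags. After centring log2 ratios on the median of genes of like GC content, an alternative chosen after seeing the data, 266 genes were lower, 239 of them the same genes. What links GC content or tag number to the stages was not tested.

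**Figure D3:**
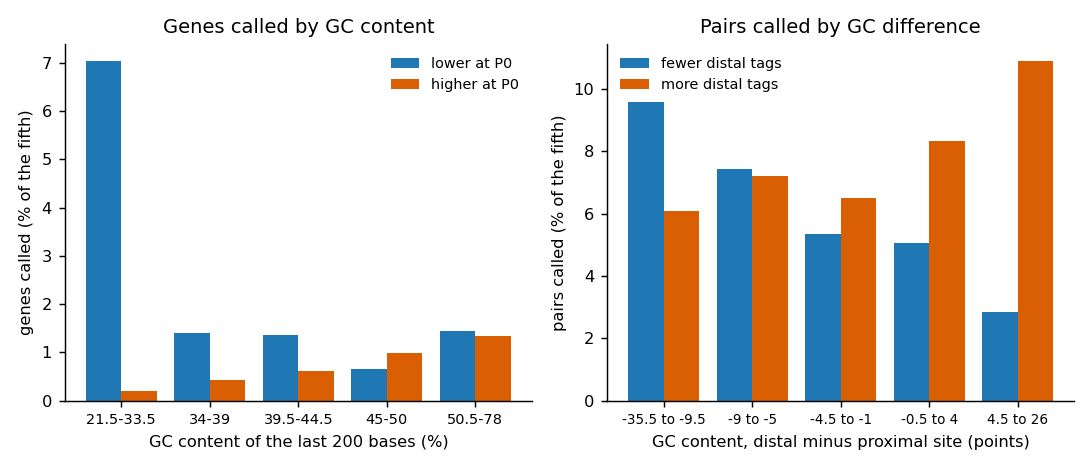
Percentage of genes called lower (blue) or higher (orange) at P0 by class of GC content of the last 200 bases (left), and percentage of site pairs called with fewer or more distal tags by the GC content of the distal minus the proximal site (right). Lower genes make up 7.04% of the class of lowest GC content, and pairs with fewer distal tags go from 9.59% where the distal site is poorest in GC to 2.84% where it is richest.

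The lowest ratios belonged to AT-rich, weakly expressed genes. Klhl9, an adaptor of a ubiquitin ligase, stood at 48.4 and 50.7 CPM at E18.5 and at 5.76 and 1.29 CPM at P0, 14.0-fold lower (7.67 to 28.4). Dr1, a repressor of transcription by RNA polymerase II, stood at 40.4 and 41.9 against 4.48 and 2.59 CPM, 11.6-fold lower (6.34 to 23.6). Stages were far apart for both, with 2 to 9 tags in each P0 column. Baz1a, a chromatin remodelling subunit, was 10.9-fold lower (5.58 to 24.3), the helicase Ddx23 10.5-fold (5.39 to 23.5), the RNA-binding protein Mex3d 8.62-fold (5.33 to 14.8), Mum1l1 7.94-fold (4.29 to 16.3) and Gorab 7.68-fold (3.56 to 19.7). Aspm, a protein of the mitotic spindle pole, stood at 50 and 43.3 CPM at E18.5 and at 5.12 and 5.83 CPM at P0. It was 8.57-fold lower (5.23 to 15).

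At P0 a few genes were at the edge of detection. Sirt1, a deacetylase that depends on NAD, had 44 and 40 tags at E18.5 and 2 and 0 at P0, a ratio of 28.2 (7.57 to 237). Zswim6 had 32 and 28 tags against 0 and 1, Ttc30a1 had 42 and 28 against 1 and 2, and Tex30 had 46 and 34 against 2 and 2. Their ratios are known only within wide counting intervals, such as 5.15 to 77.8 for Ttc30a1.

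Genes of the response to low oxygen were the list with the most genes lower at P0. Cells short of oxygen stabilise the factor HIF, which raises glycolytic enzymes, glucose transporters and Vegfa, the signal that draws vessels into the retina, and prolyl hydroxylases of the Egln family mark HIF for breakdown. Of 29 measured genes of this list, 6 were lower at P0 and none was higher, against 2.56% and 0.761% of all genes. The medians were -0.25 and -0.46 on the log2 scale. In both columns 19 genes were down and 7 up, where 4270 of all 11296 genes were down and 4656 up. The median GC content of the 29 genes was 43.5%. For 15 of the 29 P0 was the lowest of the 6 stages, against 12.1% of all genes, and for 7 E18.5 was the highest, against 11.8%.

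Egln3 (chr12:54178981-54203860 in GRCm38, minus strand), a HIF target and HIF prolyl hydroxylase, stood at 41.6 and 44.7 CPM at E18.5 and at 10.2 and 8.42 CPM at P0, 4.61-fold lower (3.11 to 7.06). Pdk1, a kinase that inhibits pyruvate dehydrogenase, stood at 182 and 172 against 51.2 and 36.3 CPM, 4.05-fold lower (3.38 to 4.90). Both were separated between stages by more than the columns differed. Their levels at E13.5, E15.5, P6 and P21 were 15.6, 20.2, 16.6 and 11.7 CPM for Egln3 and 94.7, 94.3, 94.4 and 102 CPM for Pdk1, so E18.5 was above and P0 below all of these.

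The other called members were P4ha1, Ddit4, Pfkl and Vegfa. P4ha1, which hydroxylates collagen, stood at 65 and 65.6 CPM at E18.5 and at 26.9 and 11.7 CPM at P0, 3.38-fold lower (2.56 to 4.54). Ddit4, an inhibitor of the growth kinase mTORC1, stood at 100 and 104 against 38.4 and 38.2 CPM, 2.66-fold lower (2.17 to 3.29). Pfkl, the liver form of phosphofructokinase, stood at 331 and 369 against 148 and 132 CPM, 2.49-fold lower (2.24 to 2.78), and its GC content of 59.5% was far above that of most lower genes. Vegfa stood at 88.0 and 93.1 against 39.7 and 40.8 CPM, 2.25-fold lower (1.83 to 2.77), and has a GC content of 28.0%. No P0 value of these 4 genes reached an E18.5 value.

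Ankrd37, with log2 ratios of -0.98 and -1.17, Pgam1, with -0.93 and -1.23, and the mitophagy receptor Bnip3, with -0.81 and -0.93, came close to the limit. Other members differed less. The lactate dehydrogenase gene Ldha stood at 387 and 414 CPM at E18.5 and at 388 and 324 CPM at P0, and the glucose transporter gene Slc2a1 at 324 and 321 against 289 and 293 CPM. Ndrg1, among the 7 members up in both columns, stood at 200 and 198 CPM at E18.5 and at 260 CPM in each P0 column. Its log2 ratios were 0.38 and 0.39. Eno1 and Pkm had no usable comparison, since their second columns at E18.5 held 0 and 23.3 CPM against 80.7 and 461 CPM in the first. Beyond the list, the mitochondrial adenylate kinase Ak4 stood at 33.9 and 34.4 against 7.04 and 5.83 CPM, 5.31-fold lower (3.32 to 8.92). The lactate exporter Slc16a3 stood at 200 and 230 CPM at E18.5 and at 74.2 and 49.2 CPM at P0, with log2 ratios of -1.43 and -2.22. Ak4 and Slc16a3 were singled out after their values were seen.

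**Figure D4:**
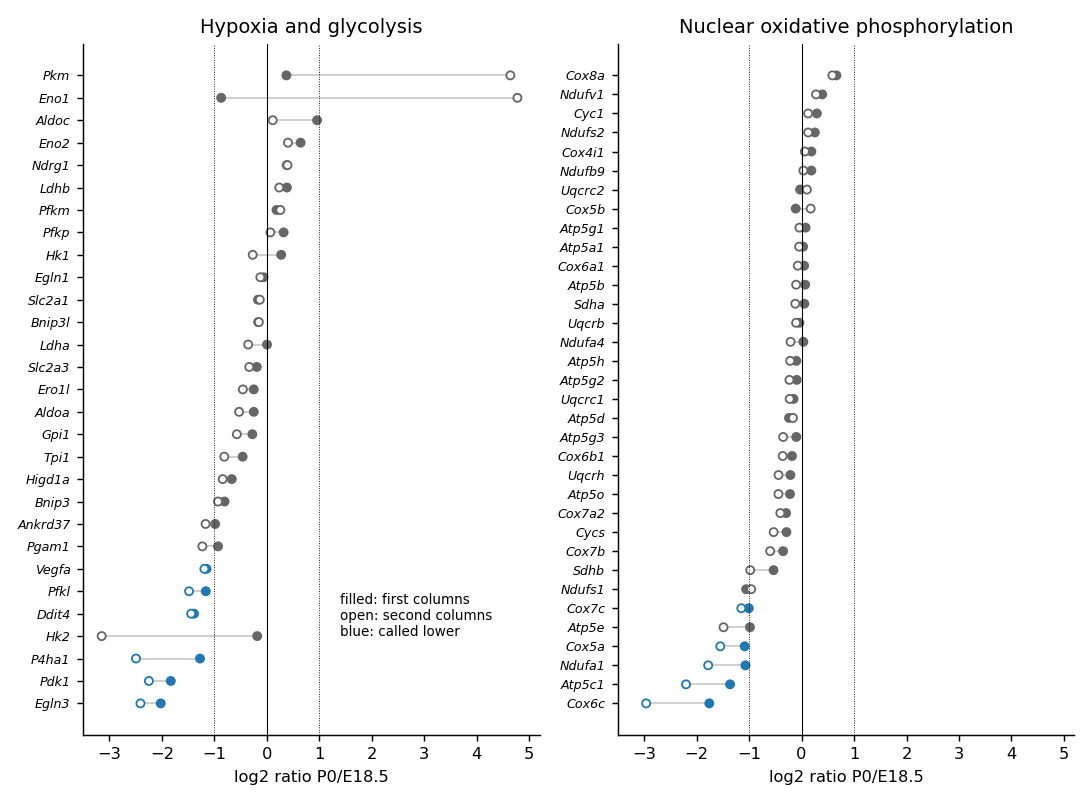
Log2 ratios of P0 to E18.5 for every measured gene of the hypoxia and glycolysis list (left) and of the nuclear oxidative phosphorylation list (right), with the first columns filled, the second open and called genes in blue; dotted lines mark 2-fold. All 6 and 5 called genes are lower at P0, and Eno1, Pkm and Hk2 differ widely between columns.

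Nuclear genes of oxidative phosphorylation, which encode most subunits of the respiratory chain and ATP synthase, had 34 measured members. None was higher and 5 were lower, against 0.761% and 2.56% of all genes. As in the hypoxia list, P0 was often the lowest of the 6 stages, for 16 of the 34, against 12.1% of all genes. E18.5 was the highest for 12, against 11.8%. Down in both columns were 20 and up in both 6, with medians of -0.11 and -0.22, where 4270 of all 11296 genes were down and 4656 up. Cox6c, a subunit of cytochrome c oxidase, stood at 84.3 and 90.7 CPM at E18.5 and at 24.9 and 11.7 CPM at P0, 4.76-fold lower (3.6 to 6.4). Atp5c1, the central stalk of ATP synthase, stood at 65.8 and 74.5 against 25.6 and 16.2 CPM, 3.34-fold lower (2.55 to 4.43). The other 3 were Ndufa1, 2.61-fold lower (2.04 to 3.38), Cox5a, 2.45-fold (1.97 to 3.06), and Cox7c, 2.10-fold (1.30 to 3.52), all without overlap. Atp5b and Cox4i1, of the same complexes, were at 297 and 302 against 311 and 282 CPM and at 299 and 307 against 341 and 321 CPM, so the list did not move as a block.

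Cell-type lists of the retina gave few calls, to be read against 2.56% of all genes lower and 0.761% higher. Of 30 measured progenitor genes 1 was lower: Sfrp2, a secreted inhibitor of Wnt signalling, stood at 89.2 and 66.1 CPM at E18.5 and at 42.2 and 20.1 CPM at P0, 2.51-fold lower (2.00 to 3.18), on the way from 689 CPM at E13.5 to 17.7 CPM at P21. Of 25 ganglion cell genes 2 were lower. Pou4f2, the factor that specifies ganglion cells, stood at 16.9 and 17.2 against 4.48 and 3.88 CPM, 4.08-fold lower (2.25 to 8), and Klhl1 was 2.85-fold lower (1.5 to 5.88). The abundant ganglion cell gene Stmn2 stood at 612 and 630 against 559 and 552 CPM. Ptf1a, which directs progenitors to amacrine and horizontal fate, stood at 43.6 and 38.2 CPM at E18.5 and at 19.2 and 13.6 CPM at P0, 2.50-fold lower (1.83 to 3.48). All 4 called genes had a GC content of 24.5% to 29.0%, in the class with the most lower genes.

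Among 37 measured cell cycle genes none was called, with medians of -0.06 and 0.03. The proliferation marker Mki67 stood at 252 and 306 CPM at E18.5 and at 306 and 372 CPM at P0, and the cyclin gene Ccna2 at 384 and 382 against 350 and 383 CPM. None of 35 synapse genes was called either, with medians of 0.33 and 0.05, and Vamp2, a vesicle SNARE, stood at 299 and 326 against 420 and 427 CPM. Sox9 was the only called gene of 16 for Müller glia, against 2.56% of all genes lower. This factor of progenitors and glia stood at 96.0 and 101 CPM at E18.5 and at 30.7 and 29.8 CPM at P0, 3.24-fold lower (2.59 to 4.10). Glul, the glial glutamine synthetase, stood at 452 and 455 against 550 and 543 CPM. The RNA of Sox9 also differed in its 3′ end, as described below.

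For site choice, each gene was described by its 2 strongest sites, if each took 5% or more of its tags, and the share of the pair's tags at the distal, 3′-most site was compared. A pair was called where this share moved by at least 10 points in the same direction in both columns, with at least 20 tags in every column. To show what such a pair looks like, the last 30 bases of RNA before each cleavage site are printed here for the strongest cases, read from GENCODE M21 transcripts on GRCm38. Capitals mark the last match to the poly(A) signal AATAAA or, where that is absent, to its most frequent variant ATTAAA. Whether a marked match is the one used was not tested. In all, 57.8% of sites with known sequence had AATAAA in the 40 bases before the site and 16.7% had ATTAAA alone. The first group holds genes with more distal tags at P0, and coordinates are those of the site clusters in mm10, all on the plus strand.
Dlg4 proximal, chr11:70045511-70045530: agagagtgaaaggaagagacagacacttga
Dlg4 distal, chr11:70047501-70047521: tactgcttttaattaaaaaaaATTAAAttc
Gmps proximal, chr3:64016733-64016751: tgagtgggagtAATAAAtgctttgttgagg
Gmps distal, chr3:64021467-64021489: tattgactataaaatcgccttgctgaatta
Btg1 proximal, chr10:96619612-96619628: ctatAATAAAttgtttcttatcttggcatt
Btg1 distal, chr10:96620096-96620112: ataaAATAAAatcccctaagctggaatcca

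The second group holds genes with fewer distal tags at P0, on the plus strand except Nfe2l2, which is on the minus strand.
Kmt5b proximal, chr19:3816252-3816303: aatccttttagataaaattgttctttgcaa
Kmt5b distal, chr19:3818275-3818298: gttaatcattttAATAAAttcggaaattaa
Sox9 proximal, chr11:112785886-112785920: ttttagccgtaATTAAAgaaaaaaaaagtc
Sox9 distal, chr11:112787730-112787751: tttacAATAAAtatacattgcattaaagtg
Nfe2l2 proximal, chr2:75691205-75691222: caaattggATTAAAtacgttgttcaaatta
Nfe2l2 distal, chr2:75675517-75675546: tagcactAATAAAagaatatcatgacttaa
Ireb2 proximal, chr9:54910014-54910032: aacattttgtaAATAAAgacagaatttgaa
Ireb2 distal, chr9:54912505-54912528: ttatttttAATAAAgaaaattgtattatca
Both groups hold proximal ends with and without a signal, and in Btg1 and Ireb2 both ends carry AATAAA. Among the printed distal ends only that of Gmps has no signal. Over all called pairs, 66.0% of distal sites with known sequence had AATAAA where distal tags were more, and 67.7% where they were fewer. The bases before the proximal site of Btg1 stop 5 bases short of the site, where the annotated transcript ends. In the distal end of Dlg4 the marked ATTAAA stops only 3 bases before the site, and the printed bases hold another ATTAAA further upstream.

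Of 5060 pairs measured deeply enough, 389 had more distal tags at P0 (7.69%) and 311 had fewer (6.15%), and 25 moved 10 points in opposite directions in the 2 columns. At a limit of 20 points the order turned, with 65 more and 84 fewer. Shares did not overlap between stages for 385 of the 389, where 35.2% of all pairs had both P0 shares above, and for 308 of the 311, where 27.7% had both below. Between the columns of a stage, 319 pairs differed by over 10 points at E18.5 and 604 at P0. The median move over all pairs was 0.843 points (first columns) and 0.743 points (second columns). Just inside the limit lay Col20a1, with moves of 10.1 and 10 points, and Hspa4, with -10 and -18.2. Just outside lay Racgap1, with 9.98 and 12.3, and Agap3, with -9.96 and -14.3.

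The balance between both directions followed the layout of the pair. Within 1 last exon, 263 of 3313 pairs had more distal tags (7.94%) and 182 fewer (5.49%), and with over 1500 bases between the sites 100 of 902 had more (11.1%) and 51 fewer (5.65%). Where the proximal site lay in an intron, 31 of 472 had more (6.57%) and 53 fewer (11.2%). GC content went with the direction here as well. Where the distal site was poorer in GC than the proximal one by 9.5 points or more, 9.59% of pairs had fewer distal tags and 6.09% more. Where it was richer by 4.5 points or more, 2.84% had fewer and 10.9% more. The distal sites of pairs with fewer distal tags had a median GC content of 32.0%, against 38.5% over all pairs. Of the 1987 pairs whose sites differed by at most 5 points, a choice made after seeing the data, 150 had more and 104 fewer. The part of GC content in these counts was not tested.

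Dlg4 encodes PSD-95, the main scaffold of excitatory synapses. Its distal share was 24.6% and 18.4% at E18.5 and 83.6% and 80.5% at P0. With columns added it went from 21.5% (Wilson interval 17.0% to 26.8%, 270 tags) to 81.8% (75% to 87.1%, 154 tags), with no overlap between stages. The proximal site went from 45.8 to 9.01 CPM and the distal site, 1991 bases downstream in the same 3′ UTR, from 12.5 to 40.5 CPM, while the gene's total changed little, with log2 ratios of -0.24 and -0.17. This was an exchange between ends.

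In Gmps, which makes GMP for guanine nucleotides, the distal share was 37.0% and 42.2% at E18.5 and 86.0% and 92.5% at P0. Here the proximal site went from 58.6 to 6.11 CPM and the distal one, 4738 bases away, from 37.8 to 51.5 CPM, so most of the difference lay in loss of proximal tags. Btg1, which slows cell division, had 11.0% and 19.0% against 66.7% and 64.7%, over only 58 tags at P0. Arl6ip6 had 37.1% and 33.3% against 81.2% and 89.7%, and Tmem243, Zwilch and Mfsd14b moved by 35.5 to 58.4 points, all without overlap. Rps15a, a ribosomal protein gene, went from 16.8% to 58.4% with columns added, but its end matches that of the pseudogene Rps15a-ps4, so its tags are uncertain.

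Of 23 measured pairs in genes of neural RNA-binding proteins, 2 had more distal tags (8.7%, against 7.69% of all pairs) and 1, Qk, had fewer (4.35%, against 6.15%). Elavl1 encodes HuR, which binds AU-rich 3′ UTRs and stabilises RNA. Its distal share was 25.1% and 24.7% at E18.5 and 53.8% and 51.4% at P0, over 646 and 431 tags, and its total abundance hardly differed, with log2 ratios of -0.08 in each column. The proximal site went from 105 to 65.6 CPM and the distal one, 2956 bases downstream, from 34.8 to 73.0 CPM. Ptbp2, the neuronal splicing repressor, had 44.5% and 43.1% against 59.0% and 62.7%. Of the 14 measured pairs in genes of cleavage and polyadenylation, 3 had more distal tags (21.4%, against 7.69% of all pairs) and none fewer (against 6.15%): Ppp1cb, a phosphatase subunit, with 24.1% and 24.5% against 55.9% and 63.6%, Wdr33, which reads the poly(A) signal, with 59.6% and 54.9% against 73.0% and 69.1%, and Pcf11, which couples cleavage to termination, with 27.0% and 36.1% against 44.4% and 46.9%. In Ppp1cb, a gene also called lower at P0, the proximal site went from 105 to 24.8 CPM and the distal one from 33.7 to 36.4 CPM.

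**Figure D5:**
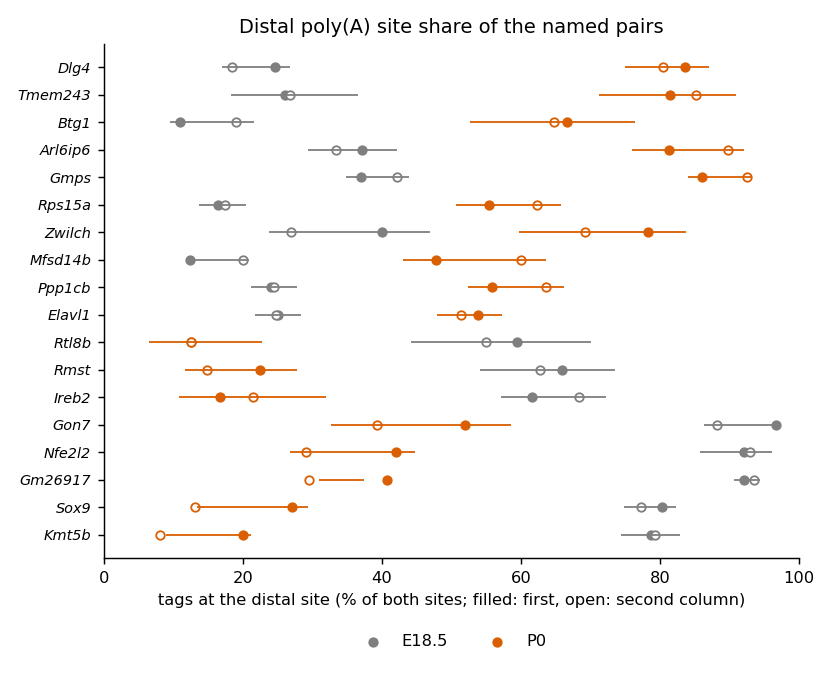
Share of a pair's tags at the distal site for the named pairs at E18.5 (grey) and P0 (orange), with the first column filled, the second open and bars for the Wilson 95% interval of the columns added. Dlg4 goes from 21.5% to 81.8% and Kmt5b from 79.0% to 13.9%, and no pair shown has overlapping stages.

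The strongest move to the proximal site was in Kmt5b, a methyltransferase of histone H4. Its distal share was 78.8% and 79.3% at E18.5 and 20% and 8.06% at P0, or 79.0% (74.5% to 82.9%, 357 tags) against 13.9% (8.89% to 21.2%, 122 tags) with columns added. The distal site went from 60.9 to 5.47 CPM and the proximal one, 1995 bases upstream, from 16.2 to 33.8 CPM.

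In Sox9 the distal share was 80.3% and 77.3% at E18.5 and 27.1% and 13.0% at P0, without overlap. The distal site went from 77.4 to 6.11 CPM while the proximal site, 1831 bases upstream, stood at 20.7 and 24.1 CPM. The lower abundance of Sox9 at P0 was thus seen in tags of the distal end of this pair, which has 30.5% GC over its last 200 bases, against 48.0% at the proximal end. Of the 38 pairs in genes called lower at P0, 12 had fewer distal tags (31.6%, against 6.15% of all pairs) and 3 had more; both calls use the same tags, so they are not independent.

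Nfe2l2, which encodes the antioxidant regulator NRF2, had 92.1% and 93.0% distal tags at E18.5 and 42.0% and 29.1% at P0. Its proximal site, 15688 bases upstream in an exon of a noncoding transcript, went from 1.73 to 21.9 CPM. Ireb2, which controls RNAs of iron metabolism, had 61.6% and 68.4% against 16.7% and 21.4%, over 52 tags at P0. Gon7 and the noncoding RNA Rmst had their proximal sites in introns and moved by -43.5 to -48.9 points. Gm26917, a noncoding gene, and Rtl8b lay with both sites in the downstream flank. The proximal site of Gm26917 had neither AATAAA nor ATTAAA before it and a GC content of 73.0%. The sequence before its distal site is not known, so its sites are uncertain. The end of Rtl8b matches Rtl8a, and its tags are uncertain.

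Called pairs in regulators of retinal cell fate lay in both directions, within lists of few pairs. Of 18 measured pairs in progenitor genes, 1 had more distal tags and 1 fewer (5.56% each, against 7.69% and 6.15% of all pairs). Of 13 in ganglion cell genes, 2 had more (15.4%) and none fewer. Of 9 in amacrine cell genes, 2 had more (22.2%) and 1 fewer (11.1%). Pax6, the eye field factor, went the proximal way: its distal site, 118 bases from the proximal one, took 43.2% and 40.7% of tags at E18.5 and 19.0% and 17.2% at P0. Six6, a partner of Pax6 in progenitors, had 36.3% and 38.5% against 49.3% and 53.9%, over 1556 and 1109 tags and sites 2580 bases apart. The ganglion cell factor Pou4f1 had 40.8% and 39.5% against 54.6% and 55.8%, and Tfap2a of amacrine cells 70.5% and 72.7% against 85.7% and 87.1%. Outside these lists, Qk, an RNA-binding protein of glia, had 53.1% and 47.1% against 29.9% and 23.1%. None of these 5 genes had overlapping stages, as was so for 385 of the 389 pairs with more distal tags and 308 of the 311 with fewer. Among the 19 measured pairs of synapse genes, 2 had more distal tags (10.5%, against 7.69% of all pairs), Dlg4 and Unc13a. Another 3 had fewer (15.8%, against 6.15%), the glutamate receptor gene Gria2, the active zone gene Rims2 and Snap25. Gria2 had 54.1% and 67.7% distal tags at E18.5 and 33.8% and 45% at P0.

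Few genes with a called pair were also called in abundance: of the 700 called pairs, 15 lay in genes lower at P0 and 5 in genes higher at P0. Few pairs lay in such genes at all, 38 in lower and 9 in higher genes. Of the 9, 1 had more distal tags (11.1%, against 7.69% of all pairs) and 4 had fewer (44.4%, against 6.15%). The kinds of place in which tags fell hardly differed between stages, with 85.2% to 85.5% in 3′ UTRs and 2.09% to 2.23% in introns over the 4 columns.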

How the data were processed

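Per the file headers, the deposited table gives counts of tags per poly(A) site cluster, 2 columns per stage, and an enrichment score per site, which was not used. The aligner was BWA 0.7.5a-r405 and the build mm10, per the submitters' processing notes. Clustering, the site filter, duplicate removal and the meaning of the columns are not given in the sources used here. The members and lists were chosen with earlier results of these data known.

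Of 32688 sites, 29105 were given to a GENCODE M21 gene (same strand, in the gene or within 1000 bases downstream). Gene counts were scaled to CPM with TMM (edgeR 4.0.16) over all 12 columns, and mitochondrial genes were left out. Counts under 3 were raised to 3 in log2 ratios of single columns. Folds use the columns added, with exact 95% intervals conditional on the total, and shares have Wilson intervals. Tags were not divided by length, since each RNA gives its tags at its end. DESeq2 1.42.0 size factors served as an alternative.

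Sequence was known for 25191 sites, counting those up to 10 bases past a transcript end. The measure of GC content and the motif search, both strandwise on the RNA, were settled while looking at the data. Ends were aligned with BLAST 2.17.0 to other transcripts. Named outside the lens list were the 12 called genes of highest and of lowest ratio with at least 10 CPM in the higher stage, up to 3 genes per list, 6 lens genes, 8 pairs each way and up to 4 list pairs; other genes are given as list members or were chosen after their values were seen. Of the 26 lists, those of cell cycle, cone, horizontal, bipolar, synapse and red blood cell genes had 0 called genes. So did those of astrocyte, mesenchyme, surface epithelium, pigment epithelium and neural RNA-binding genes. A few genes that the rule named are not reported here.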

Additional observations from a re-analysis of the deposited data

How the results depend on the processing

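No paired analysis was possible because each stage had 1 sample. No called gene named here changed direction under total tags or in either column alone. The call forces this for the columns, and total tags shifted the median log2 ratio only from 0.02 and 0.01 to -0.05 and -0.05. Of 333 values of named genes, 305 moved by no more than the SD of the columns. A single column always stays within that SD of the mean of both, so only total tags could move a value further. Of 104 list medians 86 stayed within it. With 86 genes higher and 289 lower as the base, counts of higher and lower genes were 366 and 796 at 1.5-fold, 41 and 161 with at least 50 tags, 260 and 523 in the first columns alone, 218 and 625 in the second alone, and 196 and 462 with columns added; 132 were higher with at least 10 tags. Total tags (73 and 348), DESeq2 size factors (85 and 300), no flank (71 and 267), a flank of 5000 bases (80 and 318), at least 15 CPM (78 and 210) and TMM without the lens list (87 and 289) stayed within 1.5 times; the CPM minimum, the GC alternatives and the last scaling were chosen after seeing the data. Against 389 pairs with more and 311 with fewer distal tags, counts were 65 and 84 at 20 points, 245 and 173 with at least 50 tags, 672 and 564 from first columns, 801 and 703 from second columns, 655 and 519 with columns added, 380 and 308 with pairs chosen over all 6 stages, 263 and 182 in the same last exon, and 150 and 104 with like GC content. The median move of 0.793 points, the mean of the columns, became 1.07 in the same last exon. Shares over few tags have wide counting intervals, and genes near 3 tags have no usable ratio.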

Other observations

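Lists of other cells and of general functions are read against 2.56% of all genes lower and 0.761% higher. Globin tags, which mark red blood cells, differed between the P0 columns. Hbb-bs stood at 95.2 and 85.6 CPM at E18.5 and at 122 and 33 CPM at P0, and Hbb-bt at 41.6 and 34.0 against 55.0 and 6.47 CPM. Between the P0 columns 4 of the 6 measured red blood cell genes differed 2-fold, against 2.35% of all genes. Between the E18.5 columns none of the 6 did, against 0.451% of all genes. Of 8 microglia genes 1 was lower, Fcer1g, with 12.9 and 11.6 against 6.4 and 2.59 CPM, and C1qb stood at 31.5 and 28.4 against 38.4 and 27.8 CPM. Of 6 vessel genes 1 was lower: Apln, a signal made by endothelial tip cells, stood at 19.0 and 12.6 CPM at E18.5 and at 5.12 and 5.18 CPM at P0, while the endothelial receptor gene Kdr stood at 253 and 257 against 241 and 231 CPM.

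Of 22 immediate early and stress genes 3 were lower, Ddit4, the chaperone gene Hspa8 and Zfp36, and none was higher, against 2.56% and 0.761% of all genes. Hspa8 stood at 75.9 and 84.2 CPM at E18.5 and at 30.1 and 12.9 CPM at P0, 3.70-fold lower (2.84 to 4.87), but its end matches Gm5575 and its tags are uncertain. The circadian and stress gene Per1 stood at 68.6 and 65.2 against 101 and 118 CPM, and its distal share went from 98.7% and 97.7% to 81.5% and 82.6%. Among 38 ribosomal protein genes 1 was higher, Rps3, with 228 and 187 against 466 and 451 CPM, 2.19-fold higher (2.02 to 2.38). Its distal share was 51.4% and 64.9% at E18.5 and 33.9% and 34.9% at P0. Of 24 cleavage and polyadenylation genes 2 were lower, Ppp1cb and Papolg. Papolg, a poly(A) polymerase, stood at 25.0 and 24.7 CPM at E18.5 and at 5.12 and 3.24 CPM at P0, 5.94-fold lower (3.34 to 11.5). With columns added, it stood at 14.8, 2.66, 13.7 and 5.72 CPM at E13.5, E15.5, P6 and P21. Its GC content was 29.0%, in the class with the most lower genes.

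Of 3 measured sex-linked genes 1 was called, Ddx3y, which was lower. Ddx3y, on the Y chromosome, stood at 25.8 and 29.3 CPM at E18.5 and at 6.4 and 0.647 CPM at P0, 7.75-fold lower (4.19 to 15.9). With columns added, it stood at 16.6, 5.05, 15.6 and 12.3 CPM at E13.5, E15.5, P6 and P21. Its GC content was 27.0%, in the class with the most lower genes. Not called were Eif2s3y, at 73.4 and 69.3 against 53.7 and 39.5 CPM, and Xist, expressed from the inactive X of females, at 43.2 and 44.7 against 59.5 and 74.5 CPM. The sex of the animals is not in the labels used here, and its part in any value was not tested.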
